A study of Mus musculus with 9 samples.

Results

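Semaphorins, plexins and neuropilins are a family of guidance ligands and their receptors. The members described here are the 31 genes of 19938 tested whose symbol begins with Sema and a digit from 3 to 7, begins with Plxn, or is Nrp1 or Nrp2. They comprise 20 ligands, the semaphorins, and 11 receptors, namely 9 plexins and 2 neuropilins. They were taken from probe sets annotated to exactly 1 gene symbol, with 1 probe set per gene, the one with the highest mean over all 9 arrays. All 31 also passed the filter on low values that was tried as an alternative.

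RNA levels came from 9 Affymetrix Mouse Gene 1.0 ST arrays, each of a separate preparation of back skin cells from mice at postnatal day 4. Skin-derived precursor cells (SKPs) were measured on 4 arrays, replicates 3, 4, 5 and 6. SKPs are a culture of dissociated skin collected as spherical colonies at primary passage. The Sox2-sorted group has 5 arrays, replicates 2, 16, 17, 18 and 20, with RNA from Sox2:EGFP mice, a line in which EGFP reports Sox2. These cells were sorted as EGFP-positive and CD34-negative straight from dissociated skin into RNAlater. The labels give no strain or reporter for the mice behind the SKPs, and both groups were extracted with Trizol. SKPs and sorted cells differ in culture, in sorting and in the cells chosen, and these cannot be told apart in this design.

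Semaphorins of class 3 are secreted and bind mainly to a complex of a neuropilin, which holds the ligand, and a plexin, which signals. Classes 4, 5 and 6 span the membrane, and Sema7a is held at the surface by a lipid anchor, and they bind plexins directly. Plexins carry a GTPase-activating domain inside the cell, through which they change the cytoskeleton and adhesion. In skin these genes are known for steering sensory nerve fibres and blood vessels.

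The values are log2 RMA levels, so a difference of 1 is 2-fold. The third of the genes tested with the lowest mean level lay under 6.31, and no detection calls were used, so whether a level near or under that value is above background is not known and a fold against it is approximate. Sox2, on which the cells were sorted, was at 5.78, 6.25, 6.20 and 6.41 on SKP arrays, against 9.25, 8.61, 8.40, 8.24 and 8.97 on the Sox2-sorted arrays. SKP levels of Sox2 thus lie near the limit of 6.31. Among the sorted arrays, replicates 2 and 20 differed from replicates 16, 17 and 18 by a higher level of Cd34, the marker of the cells sorted away (10.19 and 10.27, against 7.31 to 7.82). Results that rest on these replicates are also given without them. In RNA of whole samples, fewer cells of a type and less RNA per cell cannot be told apart. No scan date or other batch was given in the sources used here.

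Sema7a, Nrp1, Sema3a, Plxnc1 and Sema6d were higher in SKPs, and the other called members were lower there, led by Sema3d, Sema3c, Sema3g and Sema3b. Of the 31 members, 5 were higher and 15 lower in SKPs at an adjusted p under 0.05 (limma with Benjamini-Hochberg adjustment over all genes), and 11 were not called. Calls thus made up 64.5% of the members, beside 37.0% of all genes tested, of which 20.2% were higher and 16.9% lower. Differences of at least 2-fold were called in 5 higher and 9 lower members, where 11.7% of all genes passed that limit (5.46% higher and 6.25% lower). In 19 members (61.3%) the arrays of SKPs and sorted cells did not overlap, beside 34.0% of all genes. These members include Sema6b, which was not called and whose groups barely parted (lowest SKP array 6.9441, highest sorted array 6.9432). The median log2 fold change was -0.42 over the members and 0.07 over all genes, and the median size of the change was 0.84 and 0.24. Without sorted replicates 2 and 20, 7 members were higher and 17 lower, in a fit that called 46.5% of all genes (25.4% higher and 21.1% lower).

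Ligands and receptors differed in their counts, although that difference was not tested. The 20 semaphorins had 3 higher and 11 lower members (70.0% called, beside 37.0% of all genes) and a median log2 fold change of -0.52. The 11 receptors had 2 higher and 4 lower members (54.5% called) and a median of -0.16. Leaving out each array in turn gave 3 or 4 ligands higher and 11 lower each time, and 2 receptors higher and 3 to 5 lower.

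**Figure D1:**
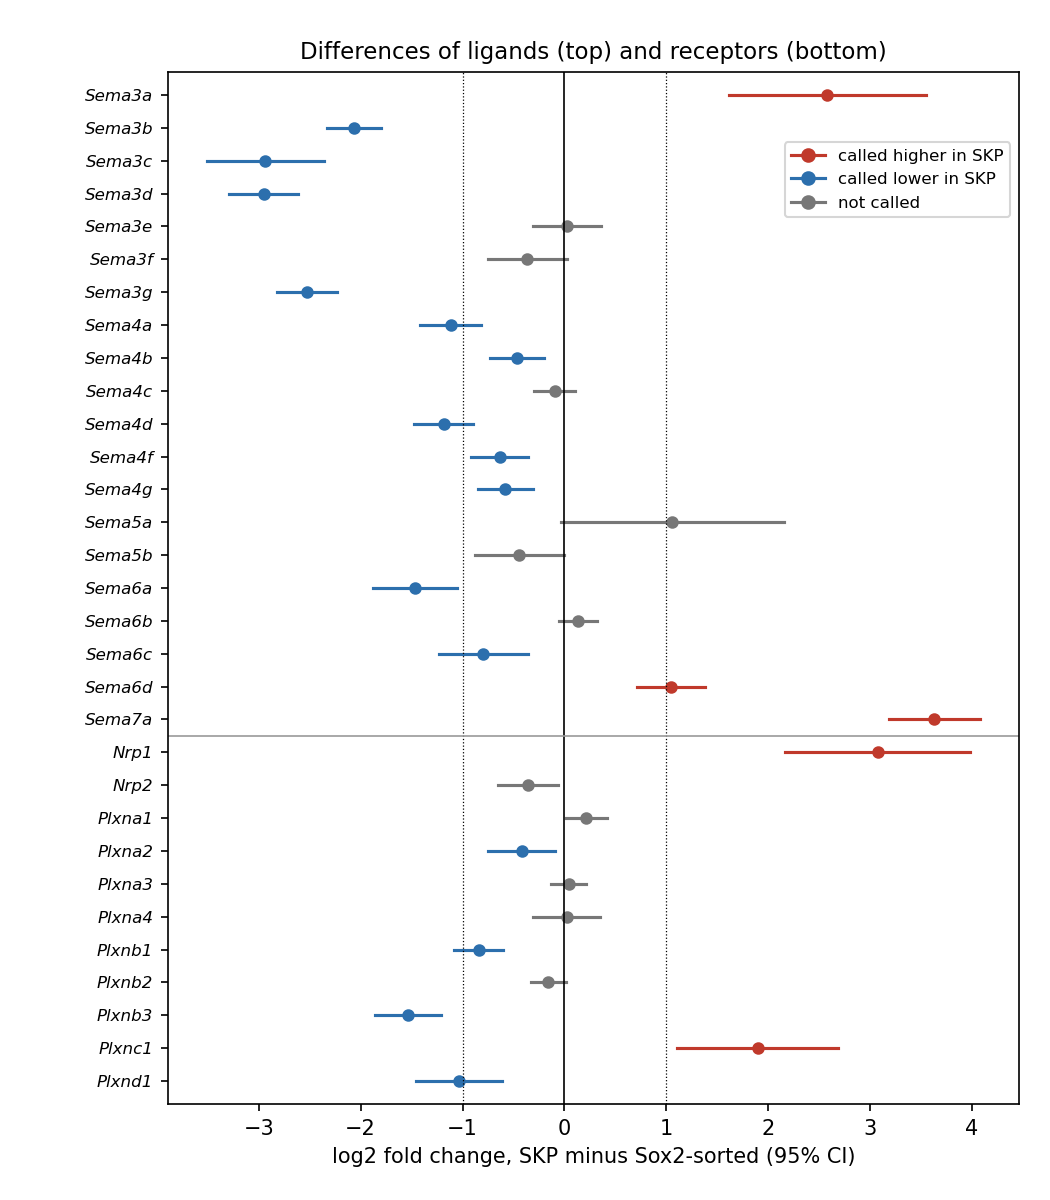
Log2 fold change of each member, SKP minus Sox2-sorted (x axis), with its 95% confidence interval, for 20 semaphorins above the line and 11 receptors under it. Dotted lines mark 2-fold. Sema7a (3.63) and Nrp1 (3.08) lie farthest to the right, and Sema3d (-2.95) and Sema3c (-2.93) farthest to the left.

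The 7 class 3 semaphorins, the secreted ligands, split: 1 was higher, 4 were lower and 2 were not called. Of all genes, 20.2% were higher and 16.9% lower. Values in this and the following paragraphs are in replicate order, 3, 4, 5 and 6 for SKPs and 2, 16, 17, 18 and 20 for sorted cells. Sema3a, which makes sensory axons retract and binds Nrp1, was at 11.85, 11.77, 11.85 and 11.73 on SKP arrays, against 10.56, 8.29, 8.73, 8.51 and 10.02 on sorted arrays. The groups did not overlap, the SKP arrays had an SD of 0.06, and sorted replicates 2 and 20 were the highest of the sorted arrays. Sema3a was 5.97-fold higher in SKPs (log2 fold change 2.58, SE 0.43, limma adjusted p = 0.00102), or 9.78-fold without sorted replicates 2 and 20 (adjusted p = 8.36e-08). Among the semaphorins it had the highest mean level of its probe set over all arrays.

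Sema3d, a secreted ligand of neuropilin receptors, was at 6.64, 6.42, 6.85 and 6.38 on SKP arrays, against 9.91, 9.22, 9.67, 9.34 and 9.47 on sorted arrays. It was 7.74-fold lower in SKPs (log2 fold change -2.95, SE 0.15, limma adjusted p = 5.03e-07). Sema3c, which acts through neuropilins with Plxnd1 in heart development, was at 6.25, 6.64, 7.20 and 6.82 on SKP arrays, against 10.13, 9.17, 9.65, 9.19 and 10.17 on sorted arrays. Neither gene's groups overlapped, and for Sema3c the sorted replicates 2 and 20 were again the highest. Sema3c was 7.64-fold lower in SKPs (adjusted p = 1.56e-05), or 6.11-fold without those replicates.

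Sema3g was at 6.53, 6.79, 6.49 and 6.85 on SKP arrays, against 8.94, 9.27, 9.54, 9.06 and 9.15 on sorted arrays. The gap between the groups was wider than either group's range, and Sema3g was 5.76-fold lower in SKPs (log2 fold change -2.53, limma adjusted p = 5.16e-07). Sema3b was at 6.75, 6.50, 6.28 and 6.45 on SKP arrays, against 8.72, 8.53, 8.65, 8.28 and 8.64 on sorted arrays. It was 4.19-fold lower (log2 fold change -2.07, adjusted p = 9.67e-07), also with no overlap. In SKPs the means of these 4 lower ligands were 6.50 to 6.73, at the 38.4 to 42.7 percentile of all genes there, so their folds are approximate. In the sorted cells they were at the 71.6 to 87.9 percentile.

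Both remaining class 3 ligands were not called. Sema3e, which binds Plxnd1 without a neuropilin, ranged between 7.51 and 7.98 on SKP arrays and between 7.50 and 8.14 on sorted arrays, with a log2 fold change of 0.03 (95% confidence interval -0.31 to 0.36). Sema3f, which prefers Nrp2, was at 8.86 ± 0.24 in SKPs (SD, n = 4), against 9.23 ± 0.32 in sorted cells (n = 5), with a log2 fold change of -0.37 (interval -0.75 to 0.02, limma adjusted p = 0.13). For both ligands the interval lies within 2-fold in either direction.

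**Figure D2:**
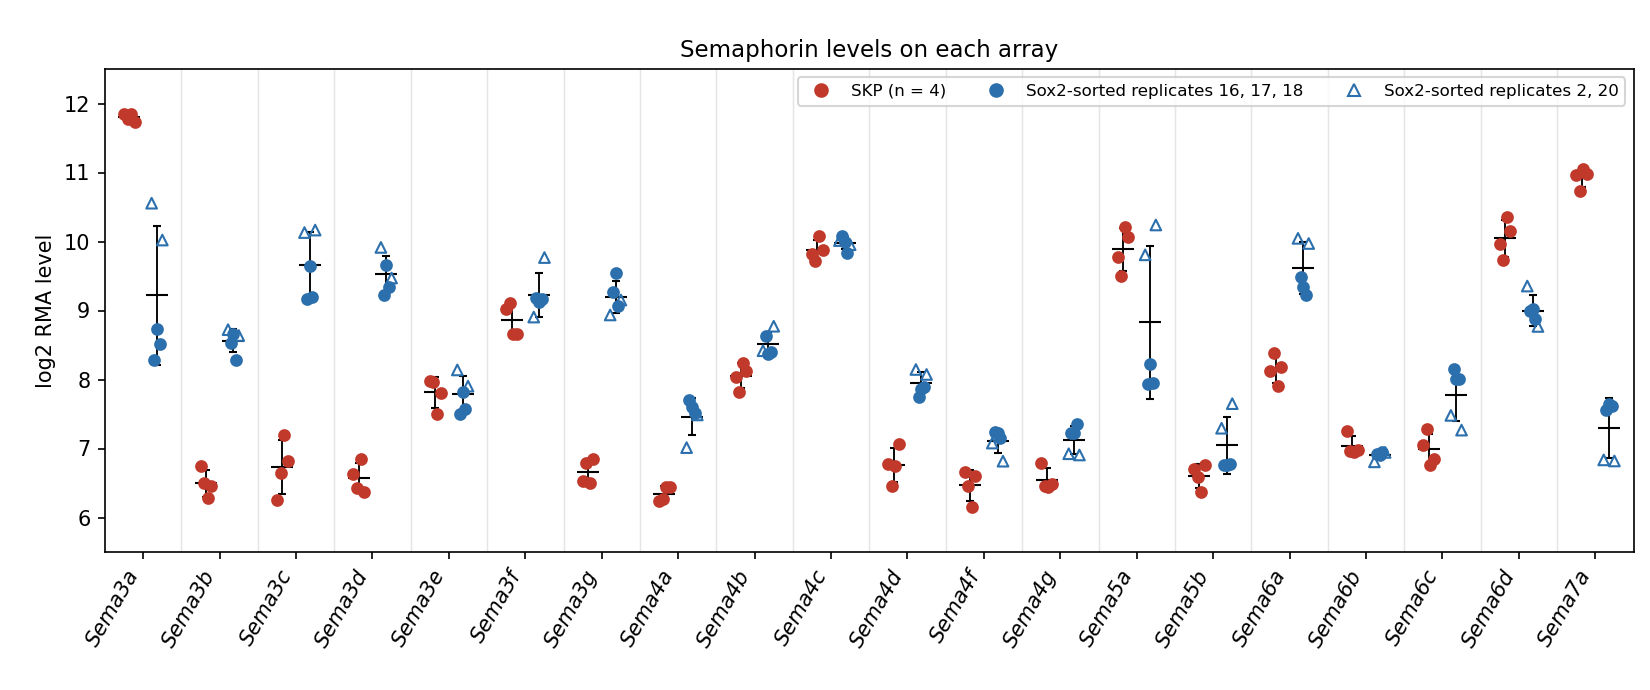
Log2 RMA level (y axis) of the 20 semaphorins on each array, with SKP (red) left of Sox2-sorted (blue) for each gene. Triangles are sorted replicates 2 and 20, and bars give the mean and SD. SKP points of Sema7a lie between 10.73 and 11.05 and sorted points between 6.82 and 7.65, while those of Sema3b, Sema3c, Sema3d and Sema3g lie the other way round.

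Sema3d, Sema3a, Sema3e and Sema3c lie in this order on chromosome 5 in the RefSeq annotation of GRCm38.p6, and Hgf lies between Sema3e and Sema3c. Sema3d and Sema3a have no protein-coding gene between them there, yet Sema3d was lower and Sema3a higher in SKPs. The promoters of Sema3d, Sema3a and Sema3c are shown because these neighbours differ in direction, and that of Sema7a because it had the largest fold of all members. Each is the RefSeq window of 250 bases before to 50 after a gene start, in GRCm38.p6, 5′ to 3′, with matches to the GC box GGGCGG on either strand in capitals.
Sema3d (chr5:12382916-12383215, plus strand): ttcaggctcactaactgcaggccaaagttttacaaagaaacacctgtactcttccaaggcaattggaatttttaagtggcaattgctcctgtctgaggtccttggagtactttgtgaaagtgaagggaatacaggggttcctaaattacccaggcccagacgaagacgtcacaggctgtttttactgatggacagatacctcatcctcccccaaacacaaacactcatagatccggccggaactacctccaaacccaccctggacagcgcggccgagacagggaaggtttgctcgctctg
Sema3a (chr5:13396534-13396833, plus strand): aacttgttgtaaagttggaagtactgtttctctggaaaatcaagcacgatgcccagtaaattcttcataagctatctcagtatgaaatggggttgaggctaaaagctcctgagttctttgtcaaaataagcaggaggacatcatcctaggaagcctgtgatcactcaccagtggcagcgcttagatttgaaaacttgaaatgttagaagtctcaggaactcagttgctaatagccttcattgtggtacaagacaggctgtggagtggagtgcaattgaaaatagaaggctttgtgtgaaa
Sema3c (chr5:17574566-17574865, plus strand): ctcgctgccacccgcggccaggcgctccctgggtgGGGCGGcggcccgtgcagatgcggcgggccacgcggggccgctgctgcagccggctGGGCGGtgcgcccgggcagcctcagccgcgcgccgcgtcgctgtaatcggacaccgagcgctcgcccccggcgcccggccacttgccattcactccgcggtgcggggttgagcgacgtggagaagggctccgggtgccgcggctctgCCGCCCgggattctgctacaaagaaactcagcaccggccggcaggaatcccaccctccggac
Sema7a (chr9:57939862-57940161, plus strand): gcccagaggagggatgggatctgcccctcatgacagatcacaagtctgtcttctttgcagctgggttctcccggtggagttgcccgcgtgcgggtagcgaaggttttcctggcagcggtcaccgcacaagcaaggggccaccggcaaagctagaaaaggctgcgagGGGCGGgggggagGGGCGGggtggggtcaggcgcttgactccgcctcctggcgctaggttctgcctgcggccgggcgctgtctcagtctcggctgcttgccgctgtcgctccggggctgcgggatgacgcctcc
Sema3c has 42 CpG dinucleotides in its window and Sema7a 23, whereas Sema3d has 8 and Sema3a 2, against a median of 7 over 32851 promoter windows. The GC content is 49.7% for Sema3d, 41.3% for Sema3a, 75.7% for Sema3c and 67.3% for Sema7a, against a median of 52.7%. The GC box occurs 3 times in the Sema3c window and 2 times in that of Sema7a, and it occurs at least once in 35.7% of all windows. The other motifs searched on both strands were TATAAA (13.6% of windows), the AP-1 motif TGANTCA (7.81%), the TCF/LEF motif CTTTGA (16.0%), the RBPJ motif TGGGAA (25.6%) and the GLI motif GACCACCCA (0.253%). None of these 5 was found in the 4 windows, and no overlapping matches arose. RefSeq windows were matched by symbol for 26 of the 31 members.

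Of the 6 class 4 semaphorins, which span the membrane, 5 were lower in SKPs and 1 was not called, beside 16.9% of all genes lower. Sema4d, the ligand of Plxnb1 and of Cd72 on lymphocytes, was at 6.77, 6.46, 6.75 and 7.07 on SKP arrays, against 8.15, 7.75, 7.87, 7.90 and 8.07 on sorted arrays. It was 2.27-fold lower (log2 fold change -1.18, SE 0.13, limma adjusted p = 6.27e-05), with no overlap. A second probe set annotated to Sema4d ranged between 6.58 and 6.92 in SKPs and between 6.87 and 7.13 in sorted cells, so the probe sets of this gene disagree on the size of the difference. Sema4a, known from immune cells and the retina, was at 6.24, 6.26, 6.44 and 6.45 on SKP arrays, against 7.01, 7.70, 7.60, 7.51 and 7.49 on sorted arrays. It was 2.17-fold lower (adjusted p = 1.18e-04), from a level in SKPs near the limit of 6.31.

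Smaller differences were called for the class 4 members Sema4f (1.55-fold lower, limma adjusted p = 0.00281), Sema4g (1.49-fold, 0.00366) and Sema4b (1.38-fold, 0.01). Sema4f and Sema4g had means of 6.47 and 6.55 in SKPs, against 7.10 and 7.13 in sorted cells. Sema4c, a ligand of Plxnb2, was not called, at 9.88 ± 0.15 in SKPs (SD, n = 4) against 9.97 ± 0.09 in sorted cells (n = 5), with an interval of -0.30 to 0.10 for the log2 fold change.

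Sema5a, a membrane ligand with thrombospondin repeats, was at 9.77, 9.51, 10.22 and 10.06 on SKP arrays, against 9.81, 7.93, 8.22, 7.95 and 10.24 on sorted arrays. Sorted replicates 2 and 20 lay within or just above the SKP range and the other 3 sorted arrays well under it. Sema5a was therefore not called over all arrays (log2 fold change 1.06, SE 0.49, limma adjusted p = 0.121). It was called without sorted replicate 20 (1.41, adjusted p = 0.0169) and without both replicates (3.62-fold higher, adjusted p = 2.65e-05). Its relative Sema5b was not called, at 6.60 in SKPs against 7.04 in sorted cells (adjusted p = 0.104), and was highest on sorted replicates 20 (7.65) and 2 (7.29).

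Class 6 semaphorins, which bind A-type plexins, moved in both directions, with 1 of 4 higher and 2 lower. Of all genes, 20.2% were higher and 16.9% lower. Sema6a, a ligand of Plxna2 and Plxna4, was at 8.12, 8.38, 7.90 and 8.18 on SKP arrays, against 10.05, 9.48, 9.34, 9.23 and 9.97 on sorted arrays. It was 2.77-fold lower in SKPs (log2 fold change -1.47, SE 0.18, limma adjusted p = 1.58e-04), with no overlap. Sema6d, a ligand of Plxna1, was at 9.96, 9.73, 10.36 and 10.15 on SKP arrays, against 9.35, 8.99, 9.02, 8.87 and 8.77 on sorted arrays. It was 2.07-fold higher (log2 fold change 1.05, SE 0.15, adjusted p = 3.57e-04), again with no overlap. Sema6c was 1.74-fold lower (adjusted p = 0.00883), though SKP replicate 4 (7.28) reached the level of sorted replicate 20 (7.27). Sema6b was not called (log2 fold change 0.13, adjusted p = 0.255), and both of its probe sets held identical values.

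Sema7a, the anchored semaphorin that binds Plxnc1 and beta 1 integrin, had the largest fold of the 31 members. It was at 10.96, 10.73, 11.05 and 10.97 on SKP arrays, against 6.83, 7.56, 7.65, 7.62 and 6.82 on sorted arrays. Here sorted replicates 2 and 20 were the lowest of the sorted arrays, in contrast to Sema3a, Sema5a and Nrp1, where they were the highest. Sema7a was 12.4-fold higher in SKPs (log2 fold change 3.63, SE 0.20, limma adjusted p = 7.27e-07), or 9.97-fold without those replicates. Its mean lay at the 96.5 percentile of all genes in SKPs and at the 50.2 percentile in sorted cells.

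The neuropilins, which hold class 3 semaphorins and also VEGF, differed from each other. Nrp1 was at 11.27, 11.45, 11.56 and 11.41 on SKP arrays, against 9.35, 7.73, 7.92, 7.38 and 9.35 on sorted arrays. No SKP array came near a sorted one, and sorted replicates 2 and 20 were the highest of the sorted arrays. Nrp1 was 8.43-fold higher in SKPs (log2 fold change 3.08, SE 0.41, limma adjusted p = 2.19e-04), or 13.4-fold without those replicates (adjusted p = 1.37e-07). Nrp2 was at 9.65, 9.27, 9.93 and 9.80 on SKP arrays, against 9.91, 10.11, 10.16, 10.04 and 9.89 on sorted arrays. Its groups overlapped on SKP replicate 5, and it was not called (log2 fold change -0.36, interval -0.65 to -0.07, adjusted p = 0.0558). The adjusted p of Nrp2 was 0.0345 without sorted replicates 2 and 20, 0.0398 after quantile normalization and 0.00512 with array weights.

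**Figure D3:**
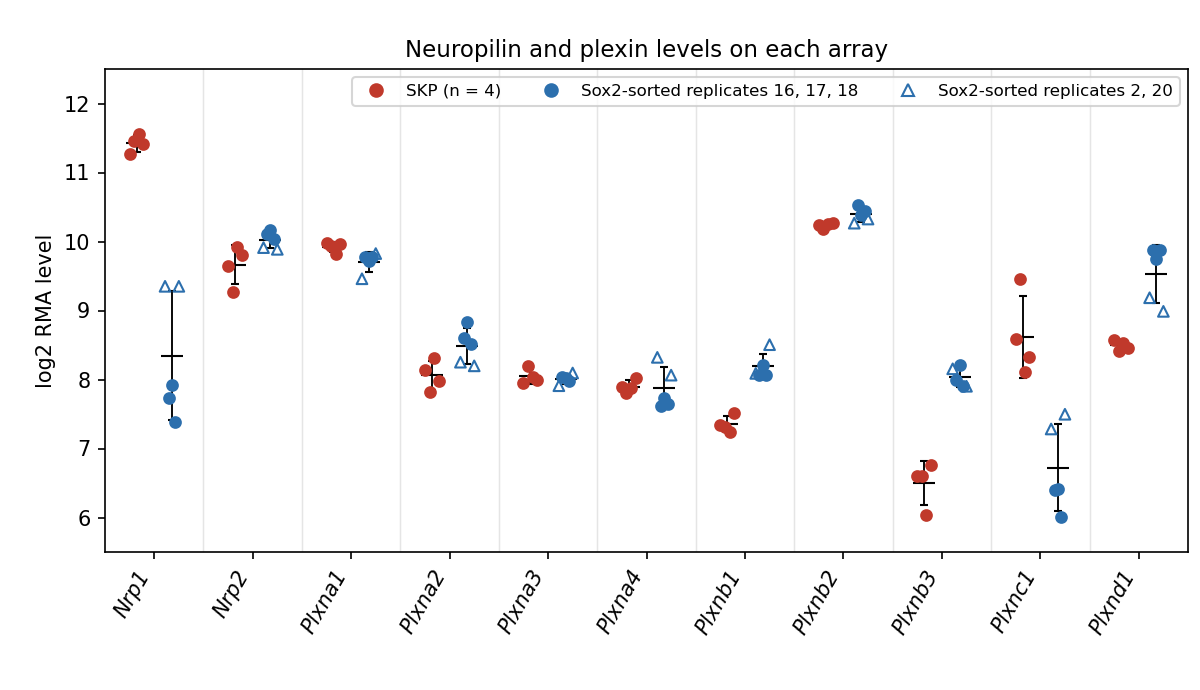
Log2 RMA level (y axis) of 2 neuropilins and 9 plexins on each array, with SKP (red) left of Sox2-sorted (blue). Triangles are sorted replicates 2 and 20, and bars give the mean and SD. Nrp1 and Plxnc1 are higher in SKPs with no overlap, and Plxnb1, Plxnb3 and Plxnd1 are lower with no overlap.

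Of the 4 A-type plexins, the usual signalling partners of neuropilins, 3 were not called. Plxna1 was at 9.92 ± 0.07 in SKPs (SD, n = 4), against 9.71 ± 0.14 in sorted cells (n = 5), with a limma adjusted p of 0.0886, and was called higher after median centring (adjusted p = 0.0159). Plxna3 and Plxna4 had log2 fold changes of 0.04 (interval -0.13 to 0.21) and 0.02 (-0.31 to 0.35). Plxna4 was highest among the sorted arrays on replicates 2 (8.32) and 20 (8.06), and without them it was called 1.18-fold higher in SKPs (log2 fold change 0.23, adjusted p = 0.0324). Plxna2 was called 1.34-fold lower (adjusted p = 0.0494), but its groups overlapped and the call was lost in 11 of 18 alternatives, 6 of them leaving out 1 array, with an adjusted p of up to 0.135. For Plxna1, Plxna2, Plxna3 and Plxna4 the interval of the difference lay within 2-fold.

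Among B-type plexins, receptors of class 4 and class 5 semaphorins, 2 of 3 were lower in SKPs, beside 16.9% of all genes. Plxnb3, which binds Sema5a, was at 6.60, 6.60, 6.04 and 6.76 on SKP arrays, against 8.15, 7.99, 8.21, 7.90 and 7.90 on sorted arrays. It was 2.89-fold lower (log2 fold change -1.53, SE 0.14, limma adjusted p = 2.36e-05), with no overlap. Plxnb1, the receptor of Sema4d, was 1.79-fold lower, at 7.24 to 7.51 on SKP arrays against 8.07 to 8.50 on sorted arrays (adjusted p = 1.83e-04). Plxnb2, which had the highest mean level of its probe set among the receptors, was at 10.23, 10.18, 10.26 and 10.27 on SKP arrays, against 10.27, 10.53, 10.39, 10.45 and 10.33 on sorted arrays. It was not called (log2 fold change -0.16, adjusted p = 0.135), and was called without sorted replicates 2 and 20 (-0.22, adjusted p = 0.026).

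Plxnc1, the receptor of Sema7a, was at 8.59, 9.45, 8.10 and 8.33 on SKP arrays, against 7.28, 6.40, 6.42, 6.01 and 7.50 on sorted arrays. It was 3.72-fold higher in SKPs (log2 fold change 1.90, SE 0.35, limma adjusted p = 0.00188), with no overlap and the highest level on SKP replicate 4. Plxnd1, the receptor of Sema3e and of blood vessels, was at 8.57, 8.41, 8.53 and 8.46 on SKP arrays, against 9.18, 9.87, 9.74, 9.88 and 8.99 on sorted arrays. It was 2.05-fold lower (log2 fold change -1.04, SE 0.19, adjusted p = 0.00167), and sorted replicates 2 and 20 were the nearest to the SKPs. Without them Plxnd1 was 2.52-fold lower.

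Set side by side, known ligands and receptors did not always differ in the same direction. Sema7a and its receptor Plxnc1 were both higher in SKPs, as were Sema3a and Nrp1. Sema4d and Plxnb1 were both lower, as were Sema3c and Plxnd1. Sema3b, Sema3c, Sema3d and Sema3g, of the class that binds neuropilins, were lower while Nrp1 was higher and Nrp2 was not called. Plxnb3 was lower while its ligand Sema5a was not called over all arrays and was higher without sorted replicates 2 and 20. Sema6d was higher while its receptor Plxna1 was not called, and Sema6a was lower, as was its receptor Plxna2, while its receptor Plxna4 was not called. The call of Plxna2 was lost in most alternatives. Sema3e was not called while its receptor Plxnd1 was lower. RNA levels were measured here, not proteins or binding.

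**Figure D4:**
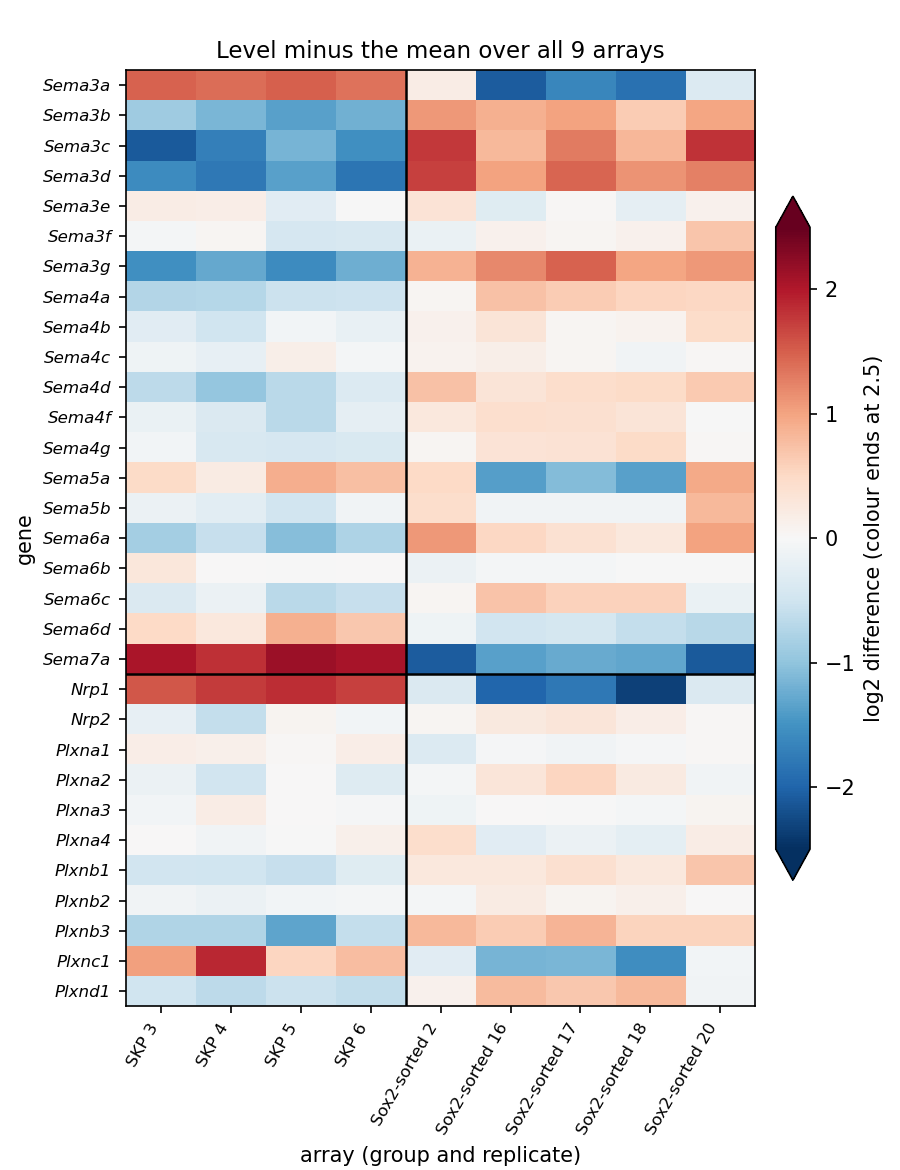
Difference of each member's log2 level from its mean over all 9 arrays (colour, red above and blue under), with 4 SKP arrays left of 5 Sox2-sorted arrays and ligands above receptors. Sorted replicates 2 and 20 differ from the other sorted arrays in, among others, Sema3a, Sema3c, Sema5a, Sema6a, Nrp1, Plxnc1, Plxnd1 and Sema7a.

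Markers of other cell types were followed on the same arrays. The means of the dermal papilla (6.05 to 6.38 on SKP arrays, against 10.41 on sorted replicate 2, 9.91 on replicate 20 and 11.36 to 11.52 on replicates 16, 17 and 18) and keratinocyte lists (6.58 to 6.92, against 9.80 to 11.91) were lower in SKPs. So were those of the Schwann cell (6.36 to 6.80, against 8.84 to 9.56) and melanocyte lists (6.60 to 6.85, against 8.40 to 9.21). The hair shaft list had means of 5.83 to 6.06 on SKP arrays, against 8.11 on sorted replicate 2, 7.67 on replicate 20 and 11.47 to 11.69 on replicates 16, 17 and 18. Plxnd1, Sema6c and Sema7a were likewise lower on sorted replicates 2 and 20 than on the other sorted arrays, and the part of these cells in that was not tested. All 8 dermal papilla, 7 keratinocyte, 6 hair shaft and 4 Schwann cell genes were lower, and 5 of 6 melanocyte genes, beside 16.9% of all genes. The papilla list includes Sox2, on which the cells were sorted, so its lower level in SKPs is no separate result. Sema3b, Sema3c, Sema3d, Sema3g, Sema4d, Sema6a and Plxnb3 were lower as well, and the part of these cell types in that was not tested. The fibroblast list, with 4 of 6 genes higher beside 20.2% of all genes, had a mean of 12.55 to 12.64 in SKPs, against 11.84 (replicate 2), 11.69 (replicate 20) and 10.46 to 10.58 (replicates 16, 17 and 18) in sorted cells. This list includes Cd34, 1 of the 4 higher genes. CD34-positive cells were sorted away, and replicates 2 and 20 were told apart by Cd34, so its values here are no separate result. Nrp1, Sema3a and Sema5a were likewise higher on sorted replicates 2 and 20 than on the other 3. So were Plxnc1, which was higher in SKPs, Sema3c, Sema4d and Sema6a, which were lower, and Sema3e, Sema5b and Plxna4, which were not called. The means of the keratinocyte, melanocyte, endothelial, neuron and Merkel cell lists were also higher on those replicates. The part of fibroblasts or of these other cells in this was not tested.

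Endothelial markers, which bear on Nrp1 and Plxnd1, had list means of 6.21 to 6.57 on SKP arrays, against 6.96 (replicate 2), 7.39 (replicate 20) and 6.10 to 6.24 (replicates 16, 17 and 18) in sorted cells. Of these 7 genes Erg was lower in SKPs (1.46-fold, limma adjusted p = 0.0367) and 6 were not called. The endothelial receptor gene Tie1 was at 6.12 to 6.30 in SKPs, against 6.07 to 6.65 in sorted cells. Tek, also not called, varied more among sorted cells, with 8.55 (replicate 2), 8.72 (replicate 20) and 6.28 to 6.46 (replicates 16, 17 and 18). Its SKP levels were 6.02 to 6.36. The part of endothelial cells in the levels of Nrp1 and Plxnd1 was not tested. Myeloid markers, which bear on Plxnc1, were higher in SKPs in 5 of 6 genes, beside 20.2% of all genes. Their list means were 7.51, 7.02, 8.48 and 7.89 on SKP replicates 3, 4, 5 and 6, against 5.80 to 6.29 on sorted arrays. Plxnc1 was highest on SKP replicate 4, where the myeloid mean was lowest, and lowest of the SKPs on replicate 5, where that mean was highest. Of the other members called higher, Sema7a and Sema6d had the order of the myeloid list over the SKP arrays, and Nrp1 and Sema3a did not. So did Sema5a, Nrp2 and Sema4c, which were not called, and Sema4b, which was lower, have that order. The part of myeloid cells in the levels of these members was not tested. In the pericyte and smooth muscle list 3 of 6 genes were lower (Myh11, Rgs5 and Des) and 3 not called, beside 16.9% of all genes lower. Its list means were 6.46 to 6.65 on SKP arrays against 7.98 to 8.97 on sorted arrays. In the neuron list Nefl and Elavl4 were higher and Stmn2 lower, and all 5 Merkel cell genes were not called (Krt20 had the smallest unadjusted limma p, 0.0595), with list means of 5.71 to 6.00 and 6.11 to 6.54 in SKPs against 6.02 to 6.47 and 6.15 to 7.10 in sorted cells.

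Partner receptors form complexes with neuropilins or plexins or, as Cd72 and beta 1 integrin do, bind semaphorins themselves. Of 16 such genes 1 was higher and 6 were lower, which is 43.8% called, near the 37.0% of all genes, and their median log2 fold change was -0.08, beside 0.07 over all genes. L1cam, the adhesion molecule that joins Nrp1 in the Sema3a receptor, was at 6.33, 6.23, 6.13 and 6.56 on SKP arrays, against 9.61, 8.68, 9.04, 8.50 and 8.98 on sorted arrays. It was 6.28-fold lower in SKPs (limma adjusted p = 5.89e-06), opposite to Nrp1 and Sema3a. Its SKP mean of 6.31 is at the limit given above for low genes, so this fold is approximate. Its relative Chl1 was 4.09-fold lower, at 6.76 ± 0.36 in SKPs (SD, n = 4) against 8.79 ± 0.33 in sorted cells (n = 5, adjusted p = 3.37e-05). The member called higher was Tyrobp, an adaptor of myeloid cells that joins a Plxna1 complex, at 7.16, 6.58, 8.01 and 7.44 on SKP arrays against 5.85 to 6.30 on sorted arrays. Tyrobp was 2.34-fold higher (adjusted p = 0.00285), and its order over the SKP arrays was that of the myeloid list.

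Other partner receptors called lower, named after their values were seen, were Nrcam (2.57-fold), Erbb2 (2.69-fold), Met (2.22-fold) and the VEGF receptor Kdr (2.11-fold). Met and Kdr had limma adjusted p-values of 0.0264 and 0.0499 and were highest on sorted replicate 20, at 8.87 and 9.13. The call of Met was lost on leaving out SKP replicate 3, 4 or 6 (adjusted p up to 0.0761). That of Kdr was lost on leaving out any SKP array or sorted replicate 2 or 16 (up to 0.126).

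Ligands of neuropilins other than semaphorins were higher in SKPs in 6 of 7 genes, with 1 not called and a median of 0.95. That is 85.7% called, beside 37.0% of all genes, of which 20.2% were higher. Vegfd, a growth factor of lymphatic vessels, was at 11.14, 11.03, 10.97 and 11.18 on SKP arrays, against 8.55, 7.47, 7.70, 7.81 and 9.34 on sorted arrays. It was 7.50-fold higher (log2 fold change 2.91, SE 0.33, limma adjusted p = 8.76e-05), with no overlap. Hgf, the ligand of Met, was at 8.96, 8.42, 9.73 and 8.90 on SKP arrays, against 6.12, 6.68, 6.31, 6.58 and 5.86 on sorted arrays. It was 6.45-fold higher (adjusted p = 2.36e-05), against a sorted mean close to the limit given above for low genes. Tgfb1 (2.81-fold), Vegfc (1.93-fold), Pgf (1.82-fold) and Vegfb (1.39-fold) were also higher, with limma adjusted p-values of up to 0.0039. Vegfa, the main growth factor of blood vessels, was not called (log2 fold change 0.29, interval 0.01 to 0.58, adjusted p = 0.0975). Without sorted replicates 2 and 20 this list again had 6 higher genes and 1 not called, where 46.5% of all genes were called.

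**Figure D5:**
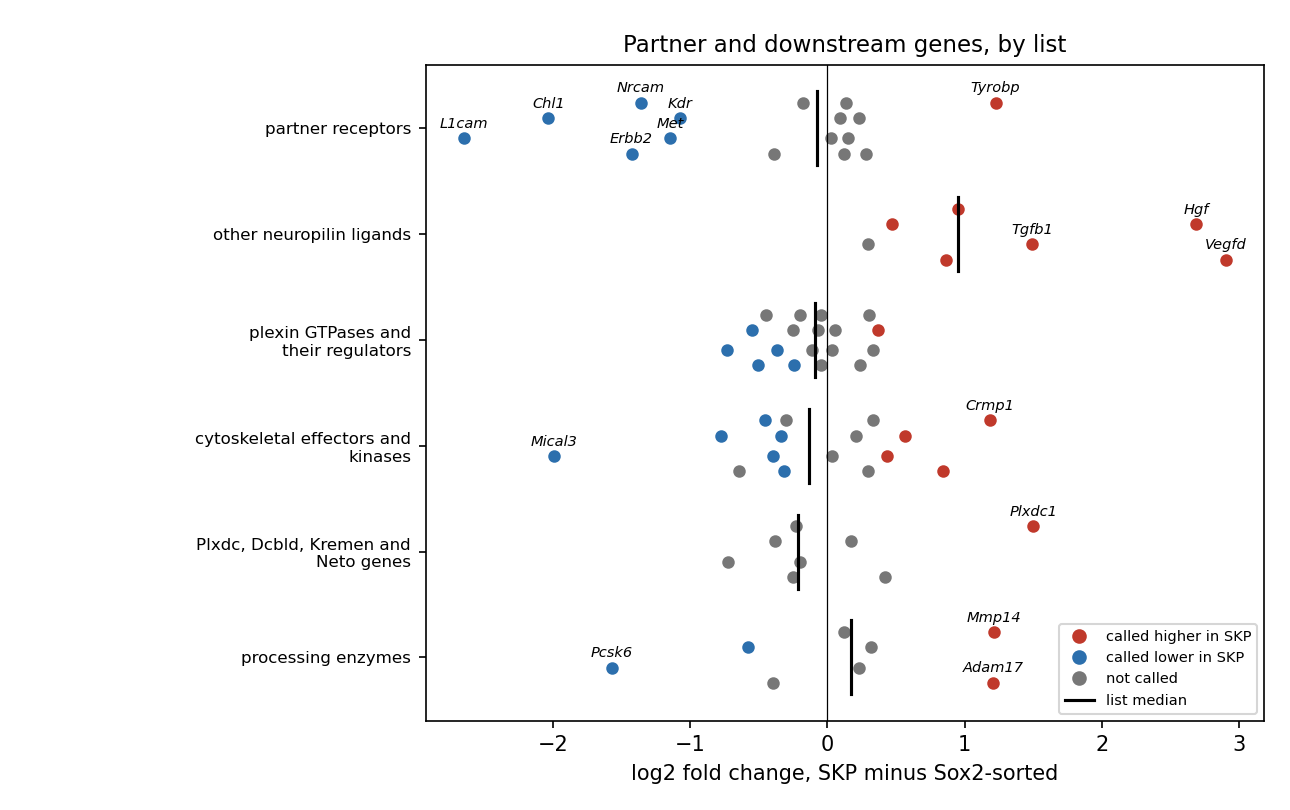
Log2 fold change, SKP minus Sox2-sorted (x axis), of the measured genes of 6 lists of partner and downstream genes. Each point is a gene, coloured by its call, the black line is the list's median, and called genes with at least 2-fold difference are named. The list of other neuropilin ligands lies to the right of 0, with Vegfd at 2.91 and Hgf at 2.69, and L1cam lies farthest left at -2.65.

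Other genes carry plexin signals inside the cell. Of 18 GTPases and their regulators 1 was higher and 5 were lower (Rras2, Arhgef12, Arhgef11, Ranbp9 and Farp2), which is 33.3% called, beside 37.0% of all genes. Their median was -0.09. Rras, a target of the plexin GTPase-activating domain, was 1.29-fold higher (limma adjusted p = 0.00348), at 10.00 ± 0.10 in SKPs (SD, n = 4) against 9.63 ± 0.07 in sorted cells (n = 5). Rras2 was 1.66-fold lower (adjusted p = 0.00249) and Arhgef12, an exchange factor that binds Plxnb1, 1.46-fold lower (adjusted p = 2.89e-04). Of 16 cytoskeletal effectors and kinases 4 were higher (Crmp1, Cdk5, Dpysl3 and Fes) and 6 lower, which is 62.5% called, and their median was -0.13. Mical3, of a family of actin-oxidising enzymes, was at 7.26 to 7.39 on SKP arrays against 8.99 to 9.54 on sorted arrays, and was 3.98-fold lower (adjusted p = 1.40e-06). Crmp1, a collapsin response mediator, was 2.27-fold higher (adjusted p = 1.92e-05), and Dpysl5 of the same family was 1.71-fold lower (adjusted p = 0.00302). Cdk5, a kinase that acts on such mediators, was 1.79-fold higher (adjusted p = 1.66e-05). Without sorted replicates 2 and 20, the GTPase list had 4 higher and 8 lower, the effector list 6 higher and 7 lower, and the partner receptors 3 higher and 7 lower, where 46.5% of all genes were called.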

How the data were processed

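RNA of 9 samples was hybridised to 1 array each. The authors deposited 1 log2 value per probe set and array. Per the submitters' processing notes, Expression Console, RMA and limma were used, with no version given. RMA adjusts background, normalises quantiles between arrays and summarises probes. The genome build is not given in the sources used here. Of 35556 probe sets, 21789 have 1 gene symbol in the platform annotation and 1621 several, which were not used. Symbols were looked up by Entrez identifier (21698 found, 0 changed), leaving 19938 genes.

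Groups were compared with limma 3.58.1 in R 4.3.3 (lmFit and eBayes, SKP minus Sox2-sorted, two-sided, no covariate), with Benjamini-Hochberg adjustment over all genes. Calls need an adjusted p under 0.05. The p-values rest on the spread between preparations, and precision is limited by how many arrays there are. The members, gene lists and markers were chosen with earlier results of these data known. Lists are described by counts and medians, with no set test. Rhod and Pak1 of the pathway lists are not analysed here. Every member is named; in each pathway list the 2 called genes with the largest fold in each direction are named. In values simulated for 19938 genes, 54% of 50 genes changed by log2 0.585 were called, 76% at 1, 98% at 2 and 100% at 4, with 5 unchanged genes called. Only these genes were changed, 50 at each size, a far smaller share than the 37.0% of genes called in the data. The adjustment is stricter with so few changed genes, so these rates do not describe the calls made here. Promoters are RefSeq windows of GRCm38.p6. Alternatives were quantile normalization, median centring, a filter on low genes, a mean over probe sets, array weights, trend and robust eBayes, stricter limits, an unequal-variance test and left-out arrays. Figures used matplotlib 3.10.9 in Python 3.11.15.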

Additional observations from a re-analysis of the deposited data

Results flagged for a closer look

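In 3 of the 62 sets of arrays tested (31 members in 2 groups, 4.84%) the highest or lowest array stood apart from the rest by Dixon's test, a share that chance alone gives in about 1 of 20 sets. Sema4g was at 6.80 on SKP replicate 3 and at 6.44 to 6.49 on the other 3 SKP arrays. Sema6b was at 7.25 on SKP replicate 3, against 6.94 to 6.98 on the other SKP arrays. On Sox2-sorted replicate 2 Sema6b was at 6.81, against 6.91 to 6.94 on the other sorted arrays. All of these levels are low, and no explanation was tested.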

How the results depend on the processing

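Of 20 called members, 18 kept their call and direction in all 18 alternatives compared for each member. These include a limit of 0.01 on the adjusted p of the same fit. The exceptions were Plxna2 and Sema4b (limma adjusted p = 0.01), and Sema4b lost its call only under that limit. Over the 31 members, 521 of 558 comparisons kept direction and side of the threshold, 12 lost a call, 16 gained one and 9 changed sign. The sign changes were of members with log2 fold changes near 0 and came from leaving out single arrays. Over the fits that left out 1 array, Sema3e ranged from -0.047 to 0.13, with -0.03 without SKP replicate 3 or 4 or sorted replicate 18 and -0.047 without sorted replicate 16. Over the same fits Plxna4 ranged from -0.043 to 0.13, with -0.02 without SKP replicate 6, and -0.043, -0.01 and -0.03 without sorted replicates 16, 17 and 18. Plxna3 ranged from -0.0095 to 0.073, with -0.0095 without SKP replicate 4. Other alternatives gave up to 0.19 for Sema3e (array weights), 0.23 for Plxna4 (array weights, and without sorted replicates 2 and 20, where it was called) and 0.11 for Plxna3 (median centring). Requiring at least 2-fold left 9 members lower, 7 of them ligands and 2 receptors, and 1089 genes higher and 1247 lower among all genes, fewer by the limit's construction. Array weights gave 6145 of all genes higher, against 4020 without them, and the cause was not tested. After median centring 5296 genes were higher and 2932 lower. No paired analysis was possible because the groups share no replicate number. Depth is not defined for arrays, and low signal over background limits the folds of ligands with SKP levels near 6.31.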

Other observations

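Enzymes that process semaphorins moved in both directions. Of 8 such genes 2 were higher and 2 lower in SKPs, with a median log2 fold change of 0.18. Among all genes, 20.2% were higher and 16.9% lower. Mmp14, a membrane protease known to shed Sema4d, was at 13.37 ± 0.04 in SKPs (SD, n = 4), against 12.16 ± 0.18 in sorted cells (n = 5), and was 2.32-fold higher (limma adjusted p = 8.18e-06). Adam17, a sheddase, was 2.31-fold higher (adjusted p = 1.30e-06). Pcsk6, a proprotein convertase, was 2.98-fold lower (adjusted p = 1.41e-04) and Furin, the convertase that cleaves class 3 semaphorins, 1.49-fold lower (adjusted p = 0.00917), with groups that overlapped.

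Of 8 genes with plexin-like or neuropilin-like domains (Plxdc, Dcbld, Kremen and Neto genes), 1 was higher and 7 were not called, with a median of -0.22. Among all genes, 37.0% were called. With sorted replicates 2 and 20 left out, 2 of the 8 were higher and 1 lower, where 46.5% of all genes were called. Plxdc1, which carries a plexin-type domain, was at 9.08, 8.98, 8.89 and 9.10 on SKP arrays, against 6.88, 8.33, 7.81, 8.32 and 6.21 on sorted arrays. It was 2.83-fold higher (limma adjusted p = 0.0147), or 1.81-fold without sorted replicates 2 and 20, the lowest of the sorted arrays.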
